A study of Mus musculus with 18 samples.

Results

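The genes followed here across the RNA libraries of the series mark the passage of a cortical cell through its last divisions into a young neuron: Neurog1, Neurog2, Eomes, Insm1, Btg2, Neurod1, Neurod4, Igfbpl1, Neurod2 and Neurod6. They were taken by symbol from the table of read counts, as 10 of its 24015 genes. The 3 groups were Tbr1 null layer 6, wild-type (WT) layer 5 and WT layer 6, with 4 libraries each, all from tdTomato+ neurons sorted by FACS from mouse cortex at postnatal day 5, about 25000 cells a sample. The T-box factor TBR1 is made by deep-layer neurons, and the title of the series asks how its dose in the newborn animal shapes the connections of layer 6. The sample labels call the mutant genotype a layer 6 null, but the design text calls it a constitutive null. For these mice the sources used here give no allele, no strain and no driver of tdTomato. All layer 6 libraries are in sequencing batch A, and layer 5 libraries are in batches B (replicates 1 and 2) and C (replicates 3 and 4), so layer and batch cannot be told apart. No layer 5 library shares a batch with layer 6, so no within-batch value exists for that comparison.

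In the developing cortex, radial glia divide to give intermediate progenitors, which in turn give excitatory neurons. Basic helix-loop-helix (bHLH) proneural factors of the Neurog family set the sequence going, pairing with E proteins to bind the E-box, the sequence CANNTG, and activating Neurod genes and the Notch ligand gene Dll1. Eomes, also called Tbr2, is a T-box factor of intermediate progenitors and a close relative of Tbr1, which follows it as neurons form.

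Each null layer 6 library held 41091165 to 47540669 counts, each WT layer 5 library 27465597 to 39703820 and each WT layer 6 library 32982957 to 54899002. Tbr1 itself averaged 94.7 ± 2.42 CPM (read counts scaled to library size) in null layer 6 and 175.7 ± 6.84 CPM in WT layer 6 (SD, n = 4 each). The log2 fold change was -0.89 ± 0.035, so Tbr1 reads were fewer in the mutant but not lost. Reads counted over a whole gene cannot show which part of it is deleted, and the libraries are called null here by their label. The labels do not say whether replicates are separate animals. A p-value here therefore measures the spread between these libraries and no more, and that spread may be technical. Layer 6 libraries resembled each other most within the pairs 1 with 2 and 3 with 4, whose label codes also share a digit. The chi-square per degree of freedom was 8.72 and 10.4 within these pairs in null layer 6, against 22.2 to 59.4 across them. It was 3.21 and 5.05 within the pairs in WT layer 6, against 10.6 to 19.2 across them. In WT layer 5 it was 1.39 for replicates 1 with 3 and 1.33 for 2 with 4, against 2.94 to 3.35 otherwise. Each of these close layer 5 pairs joins a library of batch B with 1 of batch C. The labels do not say whether a close pair shares material, in layer 5 or in either layer 6 group. The 4 libraries of each group may therefore be fewer than 4 independent samples. P-values, SEs and intervals from single libraries treat them as 4. WT layer 6 replicates 1 and 2 also had 0.469 and 0.455 CPM of Xist, against 291 and 289 CPM in replicates 3 and 4, so the calls were repeated without them. Xist stood at 260 to 300 CPM in the null libraries and 39.1 to 40.6 CPM in the layer 5 libraries, so it differs between the groups too. Without WT layer 6 replicates 1 and 2, 1506 genes were called between null and WT layer 6. Of the genes followed here, 1 was then higher and 2 were lower in null, as with all libraries. The part of Xist in the comparisons was not otherwise tested. The libraries labelled layer 5 were lower than WT layer 6 in 5 of 7 layer 5 markers, Fezf2, Crim1 and Bcl11b among them, and higher in the other 2. They are called layer 5 here by their label alone.

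Promoter sequence of GRCm38.p6 was available from RefSeq for 8 of the 10 genes, and the windows of 3 Neurod genes are shown because they alone of the members' windows hold the E-box through which these factors act, and the 3 genes gave 3 different results in null neurons. Each runs 5′ to 3′ from 250 bases before the annotated gene start to the base before it, with every E-box (CANNTG, which reads alike on both strands) in capitals. Neurod1 lies at chr2:79456637-79456886, Neurod6 at chr6:55681264-55681513 and Neurod2 at chr11:98329646-98329895, all on the minus strand.
Neurod1: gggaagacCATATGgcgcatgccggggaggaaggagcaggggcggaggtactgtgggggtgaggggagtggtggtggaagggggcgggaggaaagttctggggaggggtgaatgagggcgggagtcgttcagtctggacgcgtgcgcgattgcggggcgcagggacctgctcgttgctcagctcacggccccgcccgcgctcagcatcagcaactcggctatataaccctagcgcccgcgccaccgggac
Neurod6: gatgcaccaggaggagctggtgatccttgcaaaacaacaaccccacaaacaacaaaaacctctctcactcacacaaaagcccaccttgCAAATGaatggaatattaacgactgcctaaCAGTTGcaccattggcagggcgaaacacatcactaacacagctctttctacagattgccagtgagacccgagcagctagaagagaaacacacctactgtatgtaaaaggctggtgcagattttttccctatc
Neurod2: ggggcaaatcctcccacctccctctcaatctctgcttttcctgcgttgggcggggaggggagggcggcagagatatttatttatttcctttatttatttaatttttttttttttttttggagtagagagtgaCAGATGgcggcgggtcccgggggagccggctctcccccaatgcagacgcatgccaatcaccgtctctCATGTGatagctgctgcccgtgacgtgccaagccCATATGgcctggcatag
The Neurod1 window holds 1 E-box, CATATG at -242 from the start. That of Neurod6 holds CAAATG at -162 and CAGTTG at -132. That of Neurod2 holds CAGATG at -118, CATGTG at -51 and CATATG at -17. These were the only 3 of 9 member promoters with an E-box (Neurod4 has 2 annotated starts), while 66.2% of 32851 RefSeq promoter windows of the same length hold at least 1. The form CAGATG, with its reverse complement CATCTG, occurs in 14.4% of all windows and here in Neurod2. A T-box half-site, searched as TCACACC or GGTGTGA, occurs in 3.33% of all windows and in none of the 9. The windows ranged in GC content from 46.0% (Neurod6) to 73.2% (Btg2). A match of letters describes the window and is no evidence of binding, and its relation to the results in null neurons was not tested.

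Between null and WT layer 6, the genes did not move as a block: Neurod1 was higher in null neurons, Neurod6 and Igfbpl1 were lower, and 6 others were not called. Of the 10, 9 passed the filter on low counts. Of these 9, 1 rose and 2 fell at an adjusted p under 0.05 (edgeR quasi-likelihood test, Benjamini-Hochberg adjustment over all genes tested). Over all 14588 genes tested, 14.2% were called, 7.31% higher and 6.86% lower. The null and WT libraries did not overlap for 3 of the 9 genes, against 19.9% of all genes. The median log2 fold change (null over WT) was -0.03 over the 9 genes and 0 over all genes. Both counts are small, and nothing particular to the group is read from them.

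**Figure D1:**
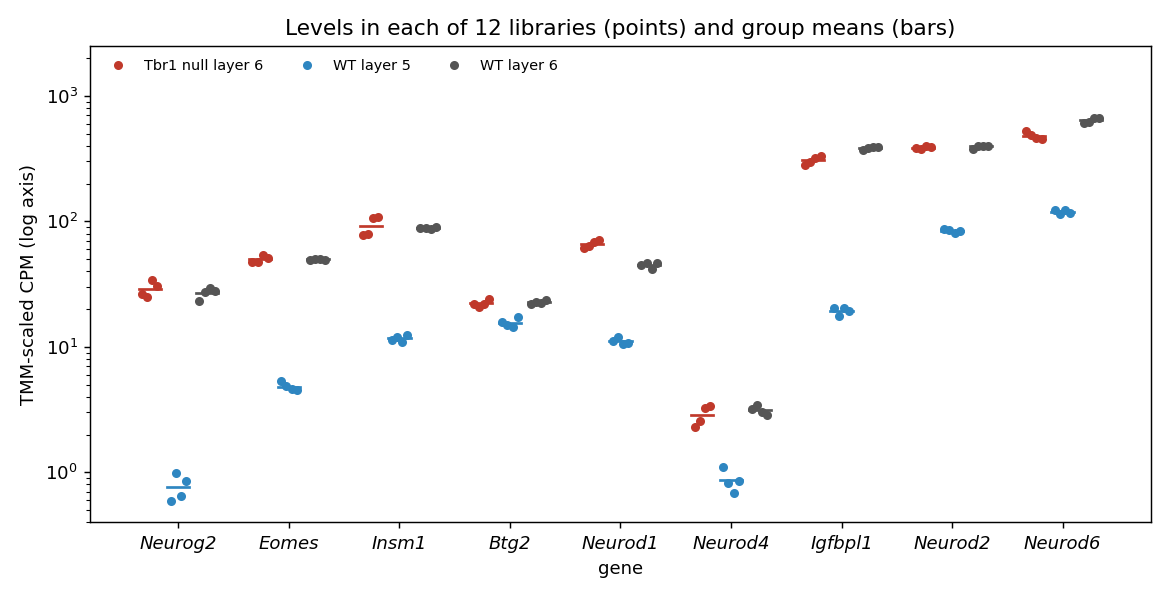
Level of each gene in each of the 12 libraries (points, TMM-scaled CPM, log axis) with group means (bars), for the 9 genes that passed the filter. All layer 5 points lie below all layer 6 points of the same gene, and null and WT layer 6 points separate for Neurod1, Igfbpl1 and Neurod6.

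The neurogenins stand at the start of the sequence. Neurog1, a proneural factor that acts with Neurog2 in early cortex, was near the limit of detection. It had 1, 6, 7 and 0 reads in null layer 6 libraries 1 to 4, 0 reads in each WT layer 5 library, and 3, 1, 2 and 5 reads in WT layer 6. With a floor of 3 counts over the layer 5 group, its share of reads was at least 2.7-fold lower in layer 5 than in WT layer 6. This bound takes the 11 reads of the WT layer 6 group as measured and does not cover their own counting error. Neurog2 had 26.5, 24.8, 34.0 and 30.6 CPM in null layer 6 (library sizes scaled by TMM, replicates 1 to 4), 0.586, 0.994, 0.649 and 0.848 CPM in WT layer 5 libraries, and 23.1, 27.1, 29.3 and 27.8 CPM in WT layer 6. The layer 6 groups overlap, and every layer 5 library is far below both. The log2 fold change of Neurog2 between null and WT layer 6 was 0.11 ± 0.096 (SE; 95% interval -0.08 to 0.30; adjusted p = 0.511).

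Eomes had 47.1, 47.1, 53.8 and 50.9 CPM in null layer 6, 5.30, 4.85, 4.61 and 4.54 CPM in WT layer 5 libraries, and 49.3, 50.3, 50.4 and 49.6 CPM in WT layer 6. The WT layer 6 values lie inside the null range. The log2 fold change in null was -0.01 ± 0.046, with a 95% interval of -0.10 to 0.09 (adjusted p = 0.952). The interval of Neurod1 (0.46 to 0.66, below) lies wholly above it.

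Insm1, a zinc-finger repressor that drives the production of basal progenitors, had 77.2, 79.0, 105.7 and 107.5 CPM in null layer 6, 11.4, 12.0, 11.0 and 12.5 CPM in WT layer 5 libraries, and 89.1, 88.1, 86.3 and 90.3 CPM in WT layer 6. The 4 WT layer 6 libraries are close together, null replicates 1 and 2 lie below all of them and null replicates 3 and 4 above all of them. Over the 4 null libraries the log2 fold change was 0.06 ± 0.095 (adjusted p = 0.73). Against all WT layer 6 libraries it was 0.27 with null replicates 3 and 4 alone and -0.18 with replicates 1 and 2 alone. These pairs were set apart after the values were seen, so both values are a description, with no test.

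The split of the null libraries ran through the whole group. In 8 of the 9 genes both null replicates 3 and 4 were above both null replicates 1 and 2, and in Neurod6 both were below. Btg2 is among the 8, although its null replicates 1 and 3 were both at 21.8 CPM to the digits given. This split was followed after the values were seen, so these counts are a description, with no test. Over all genes tested, 26.8% had replicates 3 and 4 above and 26.8% had them below. In WT layer 6 the same split gave 3 genes above, 1 below and 5 mixed. The ribosomal RNA gene Rn45s took 1.63% and 2.67% of counts in null replicates 3 and 4, and 0.921% and 0.592% in null replicates 1 and 2. The part of Rn45s in this split was not tested.

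Btg2, an antiproliferative gene switched on in progenitors that will make neurons, had 21.8, 20.8, 21.8 and 24.2 CPM in null layer 6, 15.7, 14.9, 14.3 and 17.4 CPM in WT layer 5 libraries, and 22.1, 22.7, 22.4 and 23.7 CPM in WT layer 6. Null and WT layer 6 overlap, with a log2 fold change of -0.04 ± 0.056 (adjusted p = 0.707).

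Neurod1, a bHLH factor of late progenitors and newborn neurons and a target of Neurog2, was the 1 gene of the group that rose in null neurons. It had 61.0, 64.0, 69.0 and 70.8 CPM in null layer 6, 11.1, 12.0, 10.5 and 10.7 CPM in WT layer 5 libraries, and 45.1, 46.5, 41.8 and 46.2 CPM in WT layer 6. The lowest null library is above the highest WT layer 6 library. The log2 fold change in null was 0.56 ± 0.053, or 1.47-fold (adjusted p = 1.17e-05).

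Neurod4, a bHLH factor related to Neurod1, had 2.31, 2.57, 3.26 and 3.39 CPM in null layer 6, 1.10, 0.819, 0.681 and 0.848 CPM in WT layer 5 libraries, and 3.22, 3.43, 3.05 and 2.84 CPM in WT layer 6. Null and WT layer 6 overlap, and the 95% interval of its log2 fold change, -0.42 to 0.18 around -0.12, is the widest of the 9 (adjusted p = 0.664).

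Igfbpl1, which encodes a secreted protein related to insulin-like growth factor binding proteins and marks newborn neurons, had 282.3, 297.9, 322.4 and 330.4 CPM in null layer 6, 20.5, 17.6, 20.3 and 19.2 CPM in WT layer 5 libraries, and 369.8, 382.6, 389.1 and 388.0 CPM in WT layer 6. Every null library is below every WT layer 6 library. It fell by 0.31 ± 0.046 on the log2 scale in null, 1.24-fold (adjusted p = 0.000505). With libraries summed within pairs, 2 against 2, its adjusted p was 0.068.

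Neurod2 and Neurod6 are bHLH factors that stay on in differentiated excitatory neurons. Neurod2 had 382.9, 380.0, 395.6 and 389.9 CPM in null layer 6, 86.5, 84.8, 81.3 and 84.2 CPM in WT layer 5 libraries, and 379.4, 401.9, 401.6 and 401.0 CPM in WT layer 6. Null and WT layer 6 overlap through WT replicate 1, and the log2 fold change was -0.03 ± 0.031 (adjusted p = 0.545). Neurod6 had 521.5, 488.3, 461.1 and 449.8 CPM in null layer 6, 124.1, 113.7, 123.0 and 116.4 CPM in WT layer 5 libraries, and 609.1, 620.9, 668.6 and 662.3 CPM in WT layer 6. The highest null library is below the lowest WT layer 6 library. Neurod6 fell by 0.42 ± 0.047 on the log2 scale in null, 1.33-fold (adjusted p = 5.23e-05). Each library is a bulk sample, so fewer cells of a type and less RNA per cell cannot be told apart in any of these results.

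**Figure D2:**
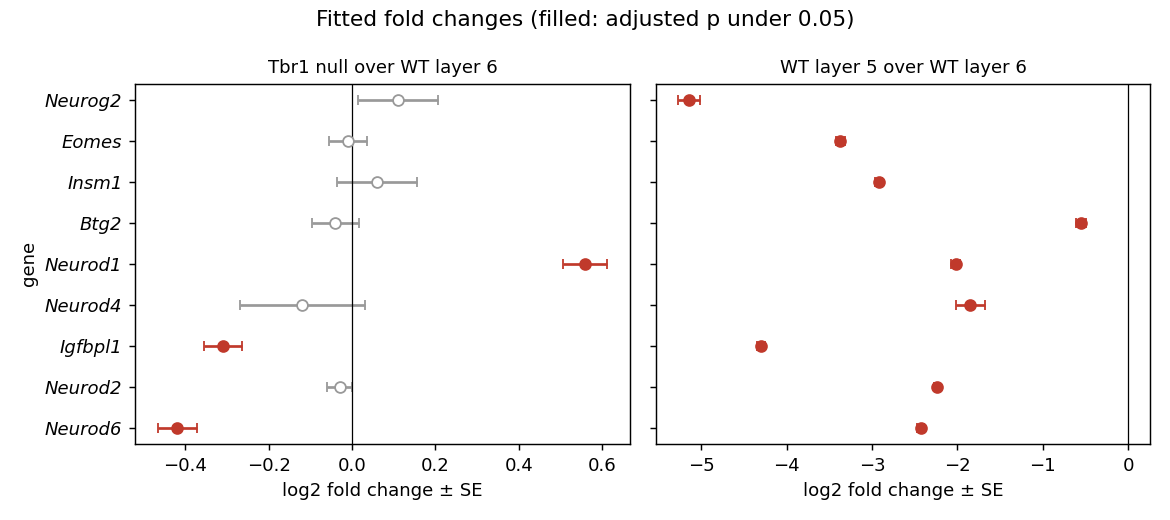
Fitted log2 fold changes ± SE of the 9 genes, null over WT layer 6 on the left and WT layer 5 over WT layer 6 on the right, each on its own scale. Filled points have an adjusted p under 0.05. On the left Neurod1 lies at 0.56, Igfbpl1 at -0.31 and Neurod6 at -0.42, and on the right all 9 points lie between -5.14 and -0.55.

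Ratios of read counts within a library do not depend on library scaling, and gene length cancels when they are compared between groups. The mean ratio of Neurod1 to Eomes reached 1.33 ± 0.0515 in null layer 6 and 2.30 ± 0.163 in WT layer 5, against 0.900 ± 0.048 in WT layer 6 (SD, n = 4 each). It was 1.30, 1.36, 1.28 and 1.39 in the null libraries and 0.916, 0.924, 0.828 and 0.931 in the WT layer 6 libraries, which do not overlap. The ratio of Igfbpl1 to Neurod1 was 4.62, 4.66, 4.67 and 4.67 in null layer 6, 1.85, 1.46, 1.94 and 1.80 in WT layer 5, and 8.19, 8.23, 9.31 and 8.40 in WT layer 6. The 4 null libraries hardly differ in it, even though both genes differ between the null pairs. For Neurod6 to Neurod2 it averaged 1.24 ± 0.0998 in null layer 6 and 1.42 ± 0.0743 in WT layer 5, against 1.62 ± 0.0542 in WT layer 6, again with no overlap between null and WT layer 6. The ratio of Neurog2 to Eomes overlapped between null (0.526 to 0.631) and WT layer 6 (0.469 to 0.580), as did that of Insm1 to Eomes (1.64 to 2.11 in null, 1.71 to 1.82 in WT). Relative to Eomes, Igfbpl1 was lower in null, at 5.99 to 6.49 against 7.50 to 7.82 in WT layer 6.

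**Figure D3:**
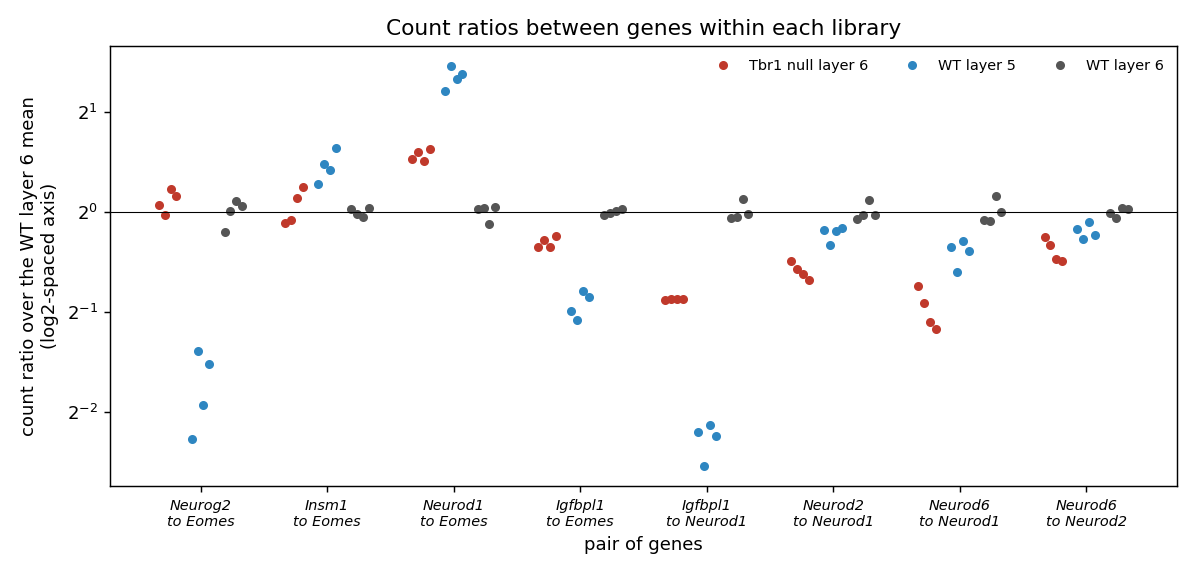
Count ratio of 8 pairs of genes in each of the 12 libraries, divided by the WT layer 6 mean of that ratio (log2-spaced axis). Null points lie near 1.48 for Neurod1 to Eomes and 0.545 for Igfbpl1 to Neurod1, apart from WT layer 6, and overlap it for Neurog2 to Eomes and Insm1 to Eomes.

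WT layer 5 libraries had less of all these genes than WT layer 6 libraries, and the differences were large. All 9 tested genes fell by edgeR and 0 rose, with 0 higher at an unadjusted p under 0.05 and 0 by DESeq2. The background is high: edgeR called 85.5% of 14927 genes, 42.2% as higher and 43.4% as lower, and the libraries did not overlap for 81.2% of all genes and for all 9 here. The calls alone therefore say little, and the sizes say more: the median log2 fold change (layer 5 over layer 6) was -2.43 over the 9 genes and -0.01 over all genes, and the median size among called genes was 0.71. Both comparisons share the WT layer 6 libraries.

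The 4 steepest falls were in Neurog2, Igfbpl1, Eomes and Insm1. Neurog2 was 35.2-fold lower in layer 5, a log2 fold change of -5.14 ± 0.13 (adjusted p = 3.72e-14), which rests on 20 to 34 reads a layer 5 library. On the authors' normalized scores it was -4.24 on the log2(score + 1) scale, which understates changes of low genes. Igfbpl1 was 19.8-fold lower (-4.30 ± 0.042, adjusted p = 4.31e-18) and Eomes 10.3-fold lower (-3.37 ± 0.055, adjusted p = 4e-16). Insm1 was 7.57-fold lower. The 4 Neurod genes fell by less, 5.38-fold for Neurod6, 4.72-fold for Neurod2, 4.06-fold for Neurod1 and 3.59-fold for Neurod4. Btg2 fell least, 1.47-fold (-0.55 ± 0.061, adjusted p = 8.27e-07). The ratio of Neurog2 to Eomes was 0.161 ± 0.043 in layer 5 and 0.537 ± 0.0483 in WT layer 6, with no overlap, so the neurogenin was lower even relative to Eomes.

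Markers of other cell types moved with this comparison. All 8 astrocyte markers were higher in layer 5, with summed levels of 5042.1 to 5069.8 CPM in WT layer 5 and 795.0 to 924.2 CPM in WT layer 6. All 8 oligodendrocyte lineage, all 7 microglia and all 6 tested vascular markers were also higher. Of 10 interneuron markers 1 was higher and 8 were lower, and of 5 markers of excitatory neurons, Neurod2 and Neurod6 among them, 1 was higher and 4 were lower. The part of these cells in the falls was not tested. In the null comparison summed astrocyte markers came to 973.3 to 1041.4 CPM in null and 795.0 to 924.2 CPM in WT layer 6, with 4 of 8 higher and 1 lower. Of 10 interneuron markers 1 rose and 3 fell, of 7 oligodendrocyte lineage markers 1 rose and 4 fell, and of 6 vascular markers 1 fell. With libraries summed within pairs 0 astrocyte, 0 interneuron and 0 vascular markers were called by edgeR, and 1 oligodendrocyte lineage marker rose and 1 fell. At an unadjusted p under 0.05 these sums gave 4 astrocyte markers higher and 1 lower, 1 interneuron marker higher and 4 lower, and 1 vascular marker lower, and DESeq2 on single libraries called the same numbers. Of 7 microglia markers 0 were called by edgeR, 0 at an unadjusted p under 0.05 and 0 by DESeq2. Of 8 layer 6 corticothalamic markers 1 rose and 6 fell, the mutated gene Tbr1 among the 6, and of 7 layer 5 markers 4 rose. Over all genes tested, 7.31% were higher and 6.86% lower in null.

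Of 20 tested bHLH partners and inhibitors of the proneural factors, 3 rose and 1 fell between null and WT layer 6, with a median log2 fold change of -0.03. With libraries summed within pairs 1 rose and 1 fell, and on the authors' scores 1 rose and 2 fell. Nhlh2, a bHLH gene of young neurons, fell by 1.23 ± 0.088 on the log2 scale, averaging 9.17 ± 0.728 CPM in null libraries, against 21.6 ± 2.44 CPM in WT layer 6 (adjusted p = 8.98e-07). Hes1, the repressor through which Notch holds proneural genes down, averaged 12.0 ± 0.856 CPM in null libraries, against 9.75 ± 0.878 CPM in WT (0.30 ± 0.082, adjusted p = 0.0279). Of 19 Notch pathway genes 2 rose, Hes1 and the Notch-modifying glycosyltransferase gene Lfng, and the ligand gene Dll3 fell. This share is near the 14.2% called over all genes tested. Lfng stayed called in 13 of 20 alternatives, Hes1 in 10 and Dll3 in 7. None of these 3 was called with libraries summed within pairs, where 2 Notch genes were higher and 1 lower at an unadjusted p under 0.05; DESeq2 on single libraries called 2 higher and 1 lower.

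Over all genes tested, 7.31% were higher and 6.86% lower in null with single libraries. Of 27 proneural targets and companions, 4 rose and 10 fell in null, with a median log2 fold change of -0.05. With libraries summed within pairs, 1 of these rose and 3 fell. Those named by the smallest adjusted p were Tbr1, Nhlh2 and Rnd3, a small GTPase gene that controls neuronal migration. Tbr1, the mutated gene itself, is counted among the 10 that fell. Rnd3 rose by 0.46 ± 0.049 on the log2 scale (adjusted p = 2.94e-05). Of 20 genes of immature neurons 2 rose and 4 fell, with small differences in the 3 named: the tubulin gene Tubb2b at -0.13 ± 0.022, the growth cone gene Gap43 at 0.17 ± 0.029 and the adhesion gene Ncam1 at 0.10 ± 0.024. None of these 3 was called with summed pairs, at adjusted p of 0.068, 0.124 and 0.22. Of 18 genes of later neurons 6 rose and 3 fell, or 3 and 1 with summed pairs. The neurofilament genes Nefl and Nefm rose by 1.52 ± 0.069 and 1.36 ± 0.090 on the log2 scale and Nrgn, a calmodulin-binding gene of dendrites, averaged 111.5 CPM in null libraries, against 47.1 CPM in WT.

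Radial glia genes were mostly higher in null, on a list that shares Slc1a3 with the astrocyte markers and Hes1 and Hes5 with the bHLH and Notch lists. Against 7.31% higher and 6.86% lower over all genes tested, 11 of 15 rose, with a median of 0.30. By edgeR 0 fell (1 at an unadjusted p under 0.05, 0 by DESeq2). With libraries summed within pairs 2 rose, and without WT layer 6 replicates 1 and 2, 10 rose. Tnc, an extracellular matrix gene, averaged 671.0 ± 35.7 CPM in null libraries, against 508.4 ± 38.0 CPM in WT layer 6. The phosphatase gene Ptprz1 rose by 0.48 ± 0.063 and the fatty acid binding gene Fabp7 by 0.21 ± 0.028 on the log2 scale. The part of astrocytes in these rises was not tested. Of 15 genes of dividing cells 4 rose, the replication helicase gene Mcm6 by 0.55 ± 0.10 and the proliferation marker Mki67 by 0.18 ± 0.043, and 0 fell by edgeR, at an unadjusted p under 0.05 or by DESeq2. With libraries summed within pairs 0 were called, with 4 higher at an unadjusted p under 0.05. Without WT layer 6 replicates 1 and 2, 2 rose. Summed dividing-cell genes were 669.2 to 690.1 CPM in null and 587.5 to 615.2 CPM in WT layer 6. Within the null group the split seen for the proneural genes went the other way: summed radial glia genes were 3429.5 and 3427.4 CPM in null replicates 3 and 4, and 3583.7 and 3600.8 CPM in replicates 1 and 2. In WT layer 6, where 5 of the 9 proneural genes were mixed, these sums also split. They were 2800.4 and 2782.9 CPM in replicates 3 and 4, and 2958.4 and 2952.3 CPM in replicates 1 and 2. A link between the splits was not tested.

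Cajal-Retzius cells are early-born neurons of the cortical surface. Of 11 of their markers 8 fell and 1 rose in null, against 6.86% lower and 7.31% higher over all genes tested. Summed levels of these markers were 385.9 to 418.9 CPM in null and 724.8 to 819.4 CPM in WT layer 6. Reln, their secreted signal, fell with a log2 fold change of -1.10 ± 0.047, Ndnf with -1.53 ± 0.078 and Trp73 with -1.91 ± 0.13, and 7 of the 11 fell with libraries summed within pairs. Nhlh2 is on this list too. Nhlh2, Ebf2, Ebf3 and Cxcr4 are also among the proneural targets and companions, so the counts of these lists are not independent. Neurod1 is also a gene of young granule cells of the dentate gyrus. Of 7 tested granule cell markers 3 fell and 0 rose (0 at an unadjusted p under 0.05 and 0 by DESeq2). The 3 were Pdzd2 at -0.77 ± 0.061, Dsp at -1.90 ± 0.27 and Calb1 at -0.41 ± 0.098. Dsp varied between null libraries, at 2.43 ± 1.32 CPM (SD). It was at -2.79 without null replicates 1 and 2, a setting chosen after the values were seen, so this value is a description. With libraries summed within pairs 1 of 8 fell, with Dsp at an adjusted p of 0.0565 and Calb1 at 0.187, and without WT layer 6 replicates 1 and 2, 1 rose and 2 fell. The part of these cell types in the members' differences was not tested.

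Between layers, genes of young neurons fell with the proneural genes. Of 27 proneural targets and companions 23 fell and 2 rose in layer 5, with a median log2 fold change of -1.43. Sox11, a transcription factor gene of young neurons, fell with a log2 fold change of -2.21 ± 0.037. Plxna2, which encodes a semaphorin receptor, was at -1.74 ± 0.023 and Bhlhe22, a bHLH gene of postmitotic projection neurons, at -1.79 ± 0.029. Of 20 genes of immature neurons 18 fell and 1 rose, with Draxin, a guidance gene, at 30.6 ± 1.17 CPM in layer 5 and 211.7 ± 7.42 CPM in WT layer 6. Dcx, Sox4, Sox11 and Elavl4 are on both of these lists, so the counts of these lists are not independent either. Of 18 genes of later neurons 13 rose and 3 fell, with a median of 0.58. The scaffold gene Dlg4 rose by 1.33 ± 0.023 and the NMDA receptor gene Grin2a by 2.69 ± 0.066, and the AMPA receptor gene Gria2 fell by 1.61 ± 0.033 on the log2 scale. For bHLH partners the counts were 9 higher and 9 lower of 20, and for the Notch pathway 8 and 8 of 19, near the background in each direction. Of the bHLH list Olig1, a factor of the oligodendrocyte lineage, rose by 2.40 ± 0.030, and Id2, which holds E proteins off DNA, fell by 1.42 ± 0.035 on the log2 scale. Of the Notch list the receptor gene Notch3 rose by 2.12 ± 0.040 and Mib1, whose ubiquitin ligase activates Notch ligands, by 1.13 ± 0.033, while the ligand gene Dll1 fell by 1.46 ± 0.060. Of 15 dividing-cell genes 6 rose and 3 fell, but 2 rose and 4 fell without WT layer 6 replicates 1 and 2, 2 rose and 2 fell with libraries summed within pairs, and 10 rose and 2 fell on the authors' scores. Of 15 radial glia genes 9 rose and 5 fell, of 11 Cajal-Retzius markers all fell, and of 8 granule cell markers 4 rose and 2 fell. Summed radial glia genes were 7386.2 to 7533.6 CPM in WT layer 5 and 2782.9 to 2958.4 CPM in WT layer 6. The astrocyte markers were higher in layer 5 too, and their part in these sums was not tested.

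**Figure D4:**
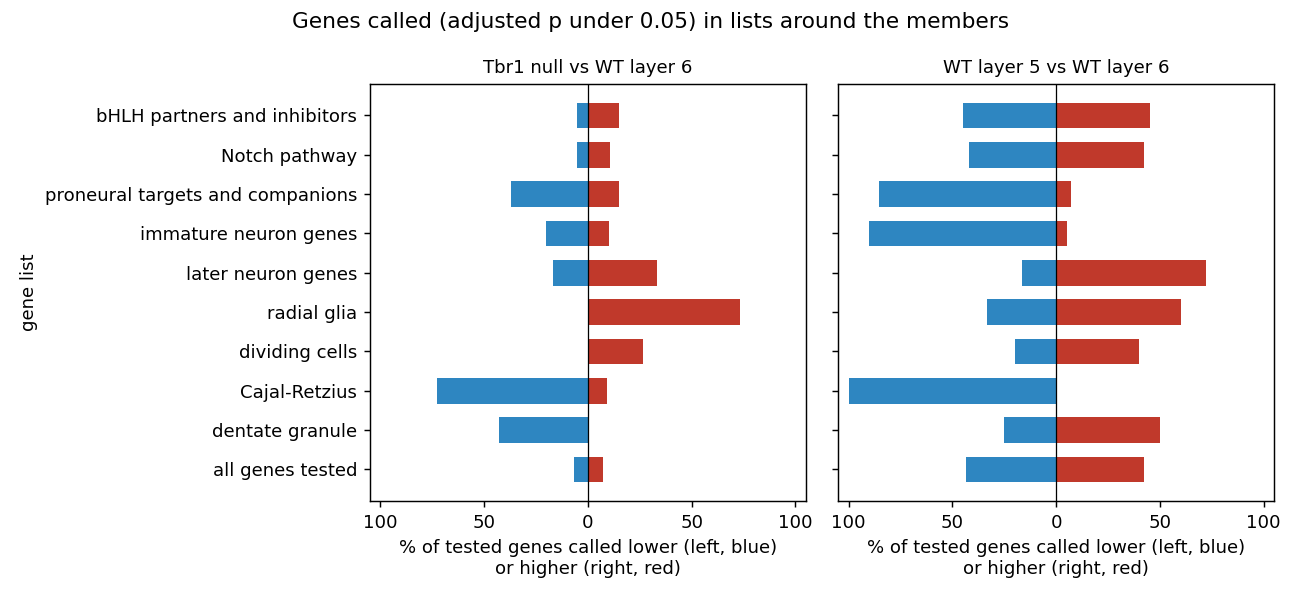
Percent of the tested genes of each list called higher (right, red) or lower (left, blue), null against WT layer 6 on the left panel and WT layer 5 against WT layer 6 on the right, with all genes tested in the bottom row. Radial glia genes lie to the right in null with 11 of 15 higher, and immature neuron genes lie to the left in layer 5 with 18 of 20 lower.

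Genes whose levels over the 12 libraries most resembled those of Neurog2 were Tusc3, Pdia6, Tra2a, Dnajb6 and Psmc6, with Pearson r of 0.9984 to 0.999 on log2(CPM + 0.5). For Neurod1 they were Slc1a1, Cacna2d1, Ptx3, Atf4 and Sez6, at 0.996 to 0.9986. The 12 points fall into the layer 5 and layer 6 libraries, so these values mostly describe that gap, and the folds differ: Tusc3 averaged 58.3 CPM in layer 5 and 158.1 CPM in WT layer 6. Slc1a1, a glutamate transporter gene, averaged 104.6 CPM in null layer 6, 42.8 CPM in WT layer 5 libraries and 86.4 CPM in WT layer 6, the same order of groups as Neurod1.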

How the data were processed

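RNA libraries were stranded and ribosome-depleted, per the labels' protocols. The count table deposited by the authors holds whole reads per gene for 24015 genes in 12 libraries, and 0 of its columns were left unmatched. The submitters' processing notes name STAR 2.5.2b, HTSeq and bedtools for RNA, with mm9 as build. The annotation and the strand setting were not given in the sources used here. The normalized table that the authors deposited has rounded whole-number scores for 14567 genes and was used as an alternative only, as log2(score + 1). The 4 peak lists, in mm9, were not used here, since the gene tables at hand are in GRCm38.

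For each comparison edgeR 4.0.16 (R 4.3.3) was fitted to the counts of its 2 groups: TMM, filterByExpr by group, the quasi-likelihood F-test, and Benjamini-Hochberg adjustment over all genes tested, called under 0.05. SE is the size of the log2 fold change over the square root of F, and 95% intervals are 1.96 SE to each side. This normal width is narrower than the degrees of freedom of the F-test would give, so these intervals are approximate. CPM are TMM-scaled over all 12 libraries. Alternatives used limma 3.58.1 and DESeq2 1.42.0, other scalings, no filter, 1 fit of all groups, summed or blocked pairs, and libraries left out. Pairs of layer 5 libraries, 1 with 3 and 2 with 4, were taken from the similarity of counts.

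The members and the gene lists were chosen with earlier results of these data known. All members are named, and from each list the called genes with the lowest adjusted p, up to 3, except that some lists, those of other cell types among them, are given mainly by their counts. A result of the bHLH list is not reported here. The 5 genes most like Neurog2 and Neurod1 were taken by Pearson r among genes averaging 1 CPM or more, predicted genes left out. Eomes and Igfbpl1 overlap another annotated gene in GRCm38, and neither of these is in the count table, so shared reads were not examined.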

Additional observations from a re-analysis of the deposited data

Results flagged for a closer look

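Of 54 sets of 4 libraries, each a level of 1 gene or a count ratio in 1 group, 3 held a library far from the other 3, where chance flags about 1 in 20. Neurod2 stood at 379.4 CPM in WT layer 6 replicate 1, against 401.0 to 401.9 CPM in the other 3 WT layer 6 libraries. The ratio of Neurod1 to Eomes was 0.828 in WT layer 6 replicate 3, against 0.916 to 0.931 in the others. The ratio of Neurod2 to Neurod1 was 7.04 in WT layer 5 replicate 2, against 7.76 to 7.90 in the others.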

How the results depend on the processing

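In null against WT layer 6, Neurod1 and Neurod6 stayed called in the same direction in all 20 alternatives, and Igfbpl1 in 19, with summed pairs as the exception. Summing libraries within pairs gave 479 called genes in place of 2068, and 1 member lower in place of 2, and limma with pairs as a random block called 1277 genes. Summed pairs leave 2 samples a group and fewer degrees of freedom, and the part of this in the lower counts was not tested. Without null replicates 1 and 2, 2 members were higher, Neurod1 and Insm1, and Neurod4 was at 0.09, Eomes at 0.07 and Btg2 at 0.02 on the log2 scale, with signs turned. Without null replicates 3 and 4, 3 members were lower, with Insm1 at -0.18 and Neurog2 at -0.06. Both of these settings were chosen after seeing the data, and the Insm1 calls in them restate how the pairs were picked. Leaving out 1 library turned the sign of 2 uncalled genes, Eomes (range -0.05 to 0.02) and Insm1 (range -0.02 to 0.14), and 1632 to 1838 genes were called. On the authors' scores Neurod4 was at 0.08. In layer 5 against layer 6, the 9 tested members stayed lower in all 18 alternatives, and leaving out 1 library gave 12520 to 12850 called genes. Pcna, a gene of dividing cells lower in layer 5 at -0.14, was at 0.11 on the authors' scores; the cause was not tested. Without the low-count filter Neurog1 was called lower in layer 5 as well (adjusted p = 0.0127), making 10.

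Same-numbered libraries did not deviate together: correlations were -0.12 to -0.07 between null and WT layer 6 and -0.01 to 0 between layers, so replicate numbers do not pair samples. With the replicate block 1526 genes were called in null and 12675 in layer 5, and no member changed its call. Of 60 values, for 30 levels under 2 other scalings, 58 moved by less than 1 SD. The 2 that moved by more were both of Eomes in WT layer 6, and the largest move of any value was 2.2%. Neurog1, with 0 to 7 reads a library, is limited by depth.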
